A study of Mus musculus with 12 samples.

Results

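Of the genes that carry out and prepare DNA replication, 44 were taken by symbol from the series table: the helicase and its loaders, the polymerases, the sliding clamp and its loader, single-strand binding proteins, enzymes of nucleotide supply, the S phase cyclins and the factors that copy chromatin behind the fork. They had 46 probes, 2 each for Gins2 and Dnmt1, of the 21738 probes on the array, of which 16620 named a single gene and together named 15081 genes. The arrays held RNA of mouse neurospheres, floating colonies of dividing neural precursors, from cortex of gestational day 12.5. There were 4 groups with 3 arrays each: control at 24 h, prominin at 24 h, control at 108 h and prominin at 108 h. All were kept in serum-free medium with basic fibroblast growth factor and epidermal growth factor at 20 ng/ml each and leukemia inhibitory factor at 0.15 ng/ml. Prominin cultures received an adenovirus expressing CD133, also called prominin 1, a membrane protein of neural stem cells. Control cultures are described as growth medium alone, whereas the design text speaks of GFP or prominin positive neurospheres, so effects of the virus and of prominin cannot be told apart. For prominin at 24 h one label field also names 108 h, and the time in the titles was used. Nothing in the labels says that the 3 arrays of a group came from separate cultures, and the spread behind each p-value is that between arrays, which may be technical.

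Each array compared neurosphere RNA, labelled with Cy5, with one reference, labelled with Cy3, from whole embryos of gestational day 12. No dyes were swapped, so a dye effect and a difference from the embryo cannot be told apart. Values below are log2 ratios, read as neurosphere over embryo, minus the array's median over the 4532 probes measured on all 12 arrays. A value of 0 is therefore the ratio of the median probe, not equality with the embryo, and a step of 1 is a factor of 2. Which channel is the numerator is not stated, and neurosphere over embryo was taken as likely from the dyes and from gene lists: all 7 astrocyte probes had mean ratios above 0, while all 7 erythroid probes and all 9 probes for embryonic tissue outside the nervous system lay below it. The median of the neural stem and radial glia list, which checks the labelled tissue, was above 0 on 12 of 12 arrays, at 1.51 to 3.52. Of its 17 probes, 13 had means above 0 and 4 below. Sox1 (−4.90), Id3, Hes1 and Id1 had negative estimates. All 8 probes of the neuron list, also neural, had means below 0.

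DNA replication begins when the origin recognition complex, with Cdc6 and Cdt1, loads the MCM helicase onto origins in G1. In S phase, cyclin E and E2F activity start synthesis, Cdc45 and GINS switch the helicase on, and polymerases alpha, delta and epsilon copy the strands. Pcna, loaded by replication factor C, holds polymerases delta and epsilon to the template. In developing cortex these genes are known as markers of the dividing progenitors of the ventricular zone, and they fall as cells become neurons.

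Relative to the median probe, the ratios of neurosphere over embryo lay low for the replication genes, more often than for probes in general. No tested member lay detectably higher than the median probe. Tk1, Pcna, Uhrf1, Tyms and Rfc1, each with a mean above 0, had too few values to be tested. The test therefore could not have called them higher. Of the 46 probes, 30, for 30 genes, had at least 2 values in every group and could be tested, and 20 of these were lower than the median probe after limma with Benjamini-Hochberg adjustment over 9155 probes. The background was 25.5% of all tested probes called lower and 30.4% called higher. The median over the 30 members was −1.56, against 0.23 over all tested probes, and 28 of 30 estimates were negative, against 44.2% of all probes. At an unadjusted p under 0.05 there were 22 members, all lower, and 61.4% of all probes in either direction. Across all 46 probes, 39 means were below 0, and 355 of 451 measured values were. In bulk RNA, fewer cycling cells and less of these RNAs per cell cannot be told apart. On the deposited scale, without centring, all 30 members were called lower than the embryo, but so were 61.9% of all probes, with 6.01% higher.

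**Figure D1:**
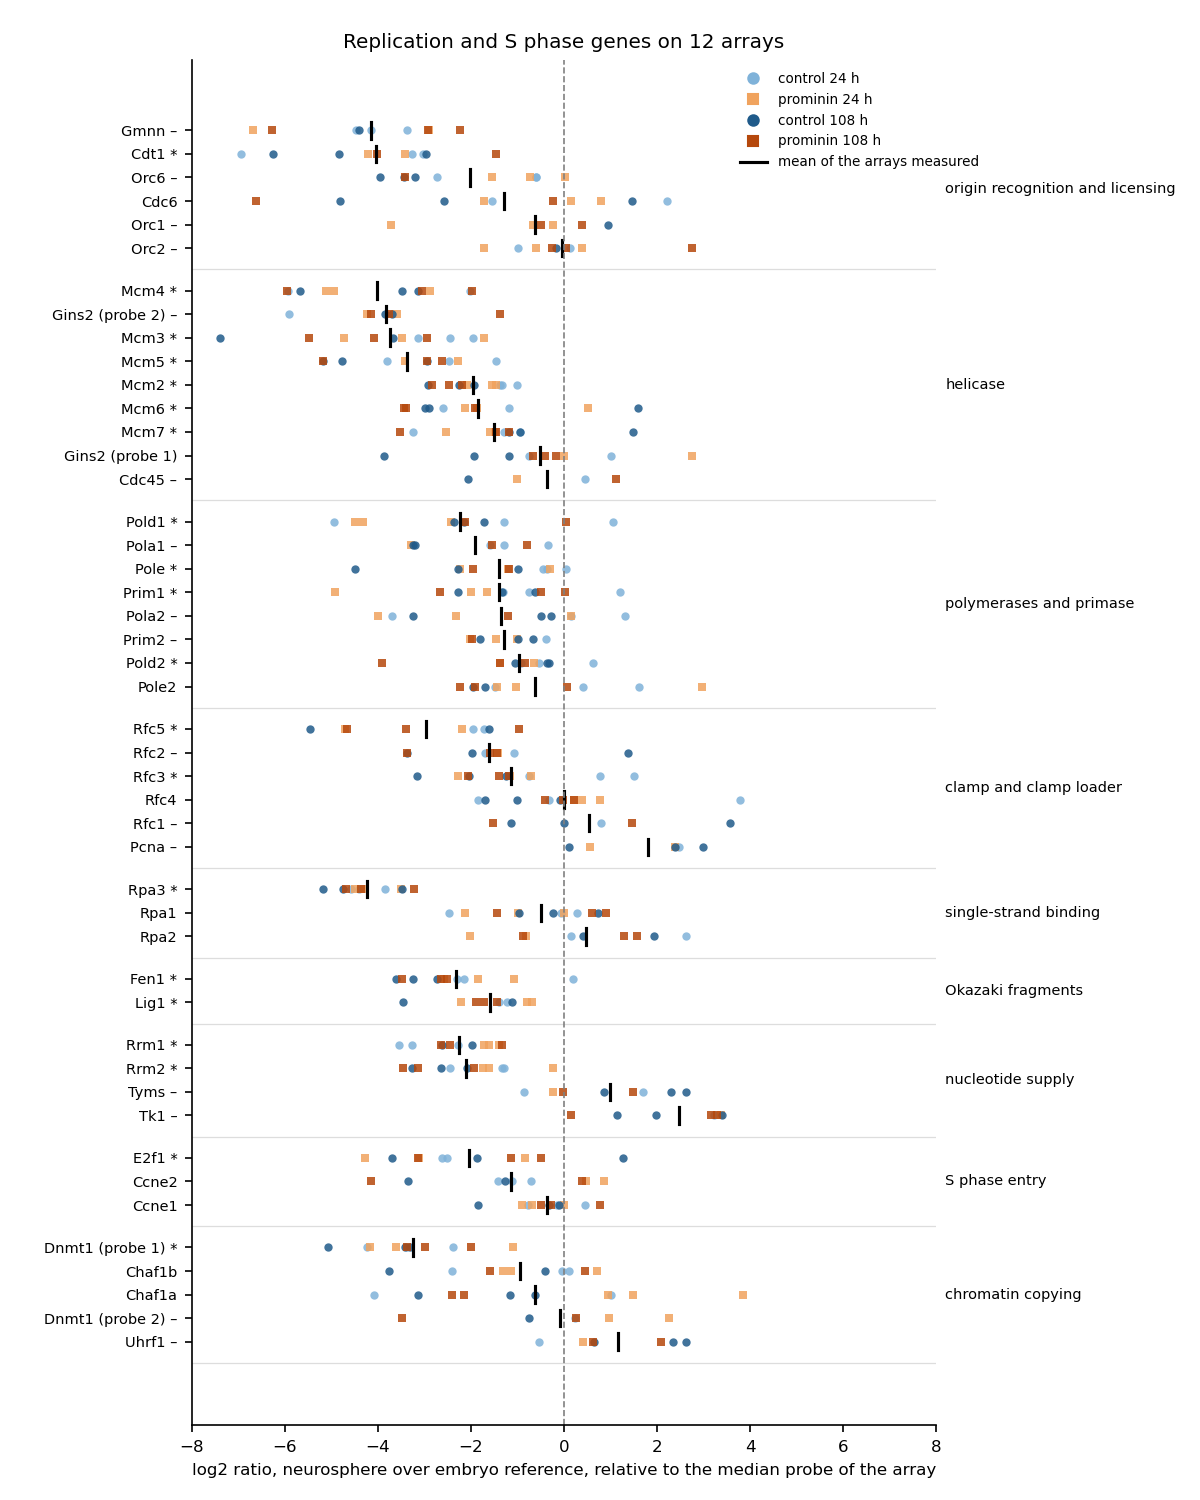
Log2 ratio to the embryo reference, relative to the median probe of the array (horizontal axis), for the 46 member probes (rows, grouped by role). Points are arrays, coloured by group, black bars are means over the arrays measured, a star marks the 20 probes called lower and a dash the 16 probes that were not tested. The single-strand binding subunit Rpa3 is low on every array, from −5.18 to −3.22, whereas Tk1 is above 0 on each of the 8 arrays that measured it.

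Licensing genes could be tested for 2 of 6 probes. Cdt1, which brings the helicase to origins, had an estimate of −3.92 (SE 0.497, limma adjusted p = 0.00014) and was below 0 on each of the 10 arrays that measured it, from −6.94 to −1.46. Cdc6, its loading partner, spread from −6.63 to 2.21 and was not called (−1.33, adjusted p = 0.169 by limma). Gmnn, the inhibitor of Cdt1, was below 0 on all 9 arrays with a value, with a mean of −4.16 ± 1.52 (SD, n = 9 arrays), but was not tested because control at 108 h had a single value. The origin recognition subunits differed among themselves. Orc6 averaged −2.02 ± 1.48 (n = 10), Orc1 −0.63 ± 1.63 (n = 6) and Orc2 −0.05 ± 1.23 (n = 9), and none of the 3 was tested.

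Each subunit of the MCM helicase was measured on 11 or 12 arrays, and all 6 were called lower than the median probe. Mcm2 had values of −1.38, −1.02 and −1.34 in control and −2.08, −1.54 and −1.47 in prominin cultures at 24 h. At 108 h they were −2.25, −2.93 and −1.94 in control and −2.20, −2.48 and −2.84 in prominin cultures. Every array was thus below 0, within a narrow range, and the 108 h arrays all lay at or under −1.94, lower than 5 of the 6 arrays at 24 h. The estimate for Mcm2 was −1.96 (SE 0.183, limma adjusted p = 5.37e-06).

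Mcm3 lay lower still, at −1.96, −3.14 and −2.46 in control and −4.73, −1.71 and −3.48 in prominin cultures at 24 h. At 108 h it was −7.39 and −3.68 on the control arrays that measured it and −5.48, −2.94 and −4.09 in prominin cultures. All 11 values were negative, and their SD of 1.66 was wider than the 0.61 of Mcm2. The estimates were −3.88 for Mcm3, −4.01 for Mcm4 and −3.33 for Mcm5 (limma adjusted p = 2.46e-05, 6.58e-05 and 2.28e-05).

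Mcm6 and Mcm7 were nearer to 0 and less uniform. Mcm7 had values of −1.30, −0.94 and −3.25 in control and −1.60, −1.49 and −2.53 in prominin cultures at 24 h. At 108 h it was at −0.95, 1.48 and −1.19 in control and −3.53, −1.18 and −1.46 in prominin cultures. It was below 0 on 11 of 12 arrays, the exception being control replicate 2 at 108 h, where Mcm6, at 1.60, was also high. The estimates were −1.85 (adjusted p = 0.00677) for Mcm6 and −1.50 (adjusted p = 0.00271, both by limma) for Mcm7. Although these proteins form one ring, their ratios stood apart on single arrays: Mcm3 was below Mcm2 on 11 of 11 arrays, by 1.80 on average, Mcm5 on 11 of 11 and Mcm4 on 10 of 11. These are ratios to the embryo and not amounts, and the differences within the ring are a description without a test. Each subunit had 1 probe, so differences between subunits and between probes cannot be told apart.

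Helicase activation was covered poorly. The 2 probes of Gins2, a GINS subunit, disagreed: the first averaged −0.53 ± 1.74 (n = 10) and the second −3.82 ± 1.23 (n = 8), and the first was higher on each of the 6 arrays that measured both. Cdc45 was measured on 4 arrays, from −2.06 to 1.11.

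**Figure D2:**
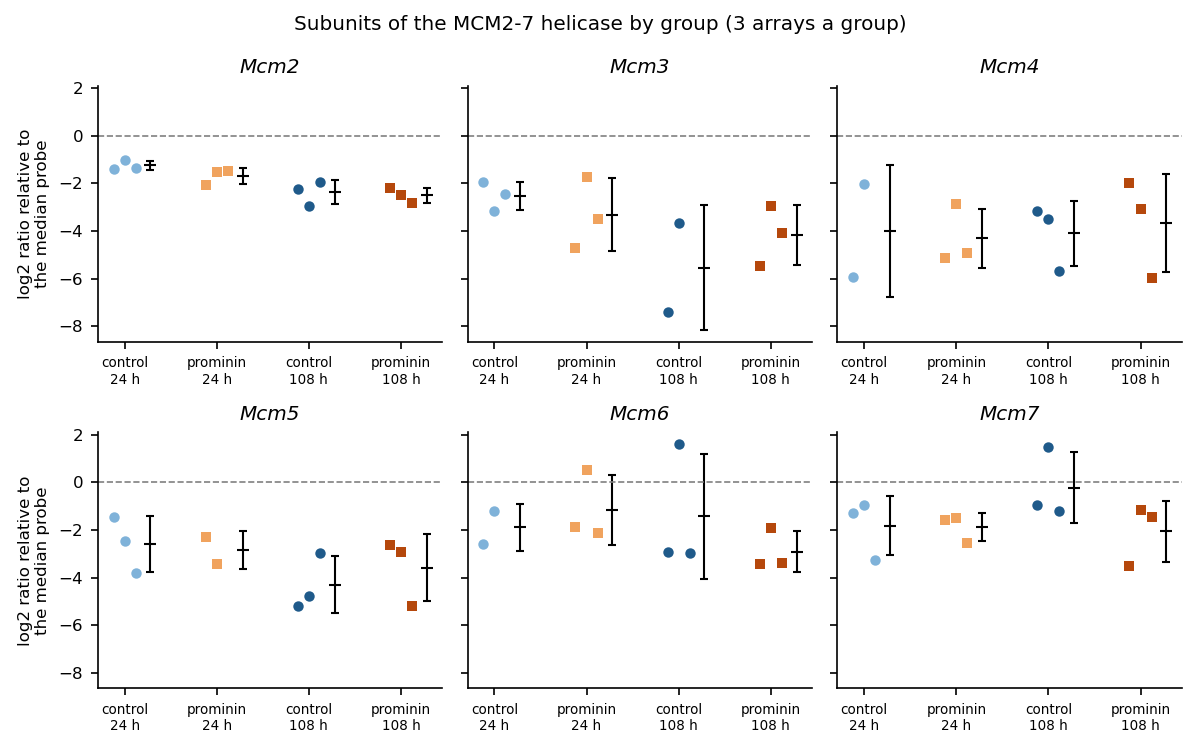
Log2 ratio to the embryo reference, relative to the median probe, of the 6 MCM subunits in the 4 groups. Points are arrays, and the bars beside them are group means ± SD over the arrays measured. Mcm2 stays between −2.93 and −1.02, while Mcm6 and Mcm7 reach 1.60 and 1.48 on control replicate 2 at 108 h.

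The promoters of some members are shown because E2F, the transcription factor family that drives S phase genes, is known to bind sites of the kind marked here. RefSeq promoter windows (GRCm38.p6) were matched by symbol for 37 of the 44 genes. The 8-letter words TTTCCCGC, TTTGGCGC, TTTCGCGC and TTTGCCGC were searched on both strands of the 250 bases before each start. They were found in 9 of the 37 genes (24.3%) and in 583 of 27025 genes with a promoter of the same length (2.16%). CCAAT, searched in the same way, was in 23 of 37 member genes (62.2%) and in 37.5% of all genes. The 9 genes with an E2F word were Cdc6, Dnmt1, Mcm5, Mcm6, Mcm7, Orc1, Pola1, Rfc3 and Uhrf1. For those called lower than the median probe, 60 bases of each promoter follow, 5′ to 3′ on the gene's strand, with the matched word in capitals. They lie at chr8:75109334-75109393 (plus strand) for Mcm5, chr1:128359719-128359778 (minus) for Mcm6, chr5:138172015-138172074 (minus) for Mcm7, chr5:151651209-151651268 (minus) for Rfc3 and chr9:20952809-20952868 (minus) for Dnmt1.
Mcm5: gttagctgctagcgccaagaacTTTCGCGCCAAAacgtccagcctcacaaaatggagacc
Mcm6: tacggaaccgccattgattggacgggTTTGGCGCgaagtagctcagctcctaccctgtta
Mcm7: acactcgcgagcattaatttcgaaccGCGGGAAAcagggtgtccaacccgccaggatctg
Rfc3: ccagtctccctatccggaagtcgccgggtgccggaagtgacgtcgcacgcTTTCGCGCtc
Dnmt1: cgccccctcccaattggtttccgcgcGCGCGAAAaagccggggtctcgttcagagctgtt
In Mcm5 the capitals cover 2 overlapping words on opposite strands, TTTCGCGC and the complement of TTTGGCGC. The promoter of Mcm6 held 3 words, and the stretch shown has the one nearest the start. Mcm7 and Dnmt1 have other annotated starts without a word. The word nearest the annotated start began 149 bases before it in Mcm5, 47 in Mcm6, 165 in Mcm7, 10 in Rfc3 and 219 in Dnmt1. Mcm7 and Dnmt1 carry theirs on the opposite strand. Mcm2 and Mcm3, also called lower, had no word, and Mcm4 had no matched promoter. Of the genes with a word, Cdc6 was not called, and Orc1, Pola1 and Uhrf1 were not tested on the arrays. Whether the words go with the level was not tested. A match of letters is not a measured site, and the arrays hold no measurement of binding.

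Among polymerases and primase, 4 of the 5 tested probes were called lower. Pold1, the catalytic subunit of polymerase delta, had an estimate of −2.15 (SE 0.494, limma adjusted p = 0.00415), its partner Pold2 −0.98 (adjusted p = 0.0225) and Pole, catalytic for polymerase epsilon, −1.42 (adjusted p = 0.00457). Prim1, the primase that makes the RNA primer, was at −1.40 (adjusted p = 0.00795). Its arrays ranged from −4.92 to 1.21, so the mean hides a wide spread. Pole2 was not called (−0.71, adjusted p = 0.206 by limma), and Pola1, Pola2 and Prim2 were not tested, with means of −1.91, −1.36 and −1.29.

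The probes of the clamp and its loader divided. Rfc5 (−2.96, adjusted p = 0.0018) and Rfc3 (−1.14, adjusted p = 0.00391, both by limma) were called lower, while Rfc4 stood at the median probe, at 0.00 (SE 0.404). Rfc5 was below Rfc4 on 8 of the 9 arrays with both, by 3.14 on average. Pcna, the clamp itself, had 6 values, 2.47 in control and 2.38 and 0.55 in prominin cultures at 24 h and 2.39, 2.98 and 0.10 in control cultures at 108 h. All 6 were above 0, but no prominin array at 108 h gave a value, so Pcna was not tested. Rfc1 averaged 0.53 ± 1.87 (n = 6) and Rfc2 −1.62 ± 1.40 (n = 9).

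The probes for single-strand binding showed a wide contrast within one complex. Rpa3, the small subunit of replication protein A, had values of −4.57, −3.86 and −4.40 in control and −3.50, −4.31 and −4.50 in prominin cultures at 24 h. At 108 h it was at −3.49, −4.75 and −5.18 in control and −4.68, −3.22 and −4.37 in prominin cultures. The groups overlapped fully, around an estimate of −4.24 (SE 0.229, limma adjusted p = 1.01e-07), the lowest of the 30 tested members. Rpa1, the large subunit, ranged from −2.48 to 0.90 with an estimate of −0.48 (adjusted p = 0.231), and Rpa2 had 0.45 (95% interval −0.49 to 1.38, adjusted p = 0.373, both by limma). Rpa3 was below Rpa1 on 12 of 12 arrays, by 3.75 ± 1.61 (SD), and below Rpa2 on 9 of 9. Each subunit had 1 probe. Where a gene had 2 probes, these also differed, on average by −3.03 for Dnmt1 and 3.135 for Gins2 (first minus second). Differences between subunits and between probes therefore cannot be told apart.

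Both genes that process Okazaki fragments were called lower. Fen1, the flap endonuclease, had 0.20, −2.14 and −2.30 in control and −1.08, −1.85 and −2.59 in prominin cultures at 24 h. At 108 h its values were −3.24, −2.73 and −3.61 in control and −2.51, −2.65 and −3.49 in prominin cultures. All arrays but control replicate 1 at 24 h were below 0. The estimates were −2.33 (SE 0.265, limma adjusted p = 2.33e-05) for Fen1 and −1.63 (SE 0.296, adjusted p = 0.00129) for Lig1, which seals the fragments.

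The probes for enzymes of nucleotide supply were split. Both subunits of ribonucleotide reductase, which makes deoxyribonucleotides, were called lower, Rrm1 at −2.26 (SE 0.228, limma adjusted p = 1.67e-05) and Rrm2 at −2.10 (SE 0.239, adjusted p = 2.38e-05). On single arrays neither was consistently the lower, Rrm1 on 4 of 11, with a mean difference of −0.15 ± 1.27 (SD). Tk1, thymidine kinase, was above 0 wherever it was measured, at 3.22 in control and 3.38 in prominin cultures at 24 h, 1.98, 1.13 and 3.40 in control and 3.16, 3.29 and 0.15 in prominin cultures at 108 h. Tyms, thymidylate synthase, averaged 0.98 ± 1.26 (n = 8). Neither had enough values for the test.

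In the S phase entry group, E2f1 was called lower (−2.09, SE 0.485, limma adjusted p = 0.00437). The E cyclins were not, Ccne1 at −0.36 (adjusted p = 0.204) with arrays from −1.85 to 0.78, and Ccne2 at −1.15 (adjusted p = 0.0667, both by limma). Of the chromatin copying genes, the first probe of Dnmt1, the maintenance DNA methyltransferase, was at −4.24, −2.39 and −3.38 in control and −1.09, −4.18 and −3.62 in prominin cultures at 24 h. At 108 h it was at −3.31, −5.08 and −3.41 in control and −2.01, −2.98 and −3.37 in prominin cultures. Its estimate was −3.26 (SE 0.316, limma adjusted p = 6.99e-06), and the groups overlapped. The second Dnmt1 probe went another way, averaging −0.09 ± 1.94 over 6 arrays, so the level of Dnmt1 depends on the probe. The chromatin assembly subunits Chaf1a (−0.84, adjusted p = 0.196) and Chaf1b (−1.01, adjusted p = 0.0805, both by limma) were not called, and Uhrf1, the partner of Dnmt1 at new DNA, averaged 1.17 ± 1.19 (n = 7) without a test.

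Most members with a mean above 0 had few usable values, as did the untested members with a mean below 0. Tk1, Pcna, Uhrf1, Tyms, Rfc1 and Rpa2 together had an exact 0, read here as missing, in 36.1% of their cells. The share was 33.3% for the 11 untested probes with a mean below 0 and 6.67% for the 20 probes called lower. Ratios of small whole numbers made up 34.1% of the values of the 6 named members, against 16.1% for those 11 and 4.91% for the 20. Such ratios were taken as a mark of dim spots, and no spot intensity was used to check this. The part of dim spots in these means was not tested. Without centring, 2 of the 46 probe means stayed above 0, those of Pcna and Tk1.

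Of the 4 other lists of cell cycle and DNA genes, mitosis genes had the lowest median, −1.92 over 21 tested probes, of which 15 were called lower and 0 higher. Of 25 probes for further replication genes 12 were called lower and 3 higher, with a median of −0.76. G1 regulators were called lower for 10 and higher for 6 of 20 probes, and DNA repair genes for 4 and 6 of 16. Markers of other cell types also lay away from 0: the median of the neuron list ran from −3.47 to −1.09 per array and that of the astrocyte list from 2.91 to 6.02. Their part in the members' level was not tested.

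**Figure D3:**
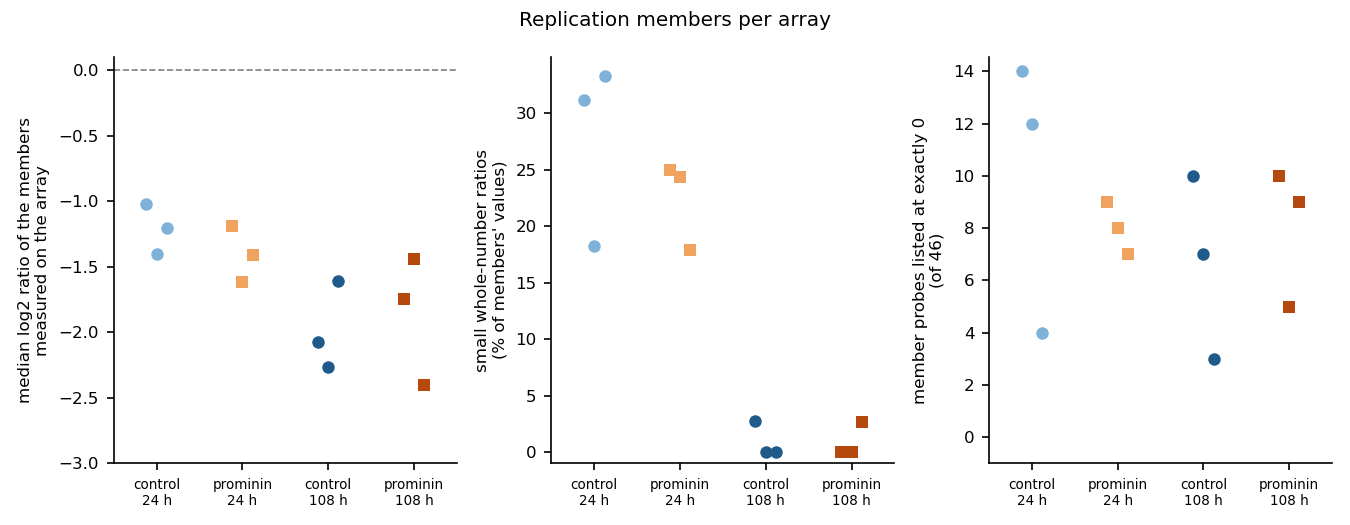
Per array (points, by group), the median log2 ratio of the measured member probes, the share of their values that are ratios of small whole numbers (%), and the number of the 46 member probes listed at exactly 0. Member medians run from −1.62 to −1.02 at 24 h and from −2.41 to −1.44 at 108 h, and the shares from 17.9 to 33.3% at 24 h and from 0 to 2.78% at 108 h.

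Prominin did not change any member detectably at either time. At 24 h, 0 of 30 members passed, as did 0% of all probes, and at an unadjusted p under 0.05 there were 5 members (16.7%; 2 higher, 3 lower) against 4.58% of all probes. The median difference over the members was −0.22, with 11 estimates positive and 19 negative, against −0.10 over all probes. Without control replicate 2 at 24 h, the members' median was −0.67. Of the 19 members with all 6 values, the groups did not overlap for 3, a background of 5.94% of all such probes lower and 4.24% higher. Rrm1 was higher with prominin, at −1.71, −1.61 and −1.39 against −3.54, −2.27 and −3.26 in control cultures, a difference of 1.45 (95% interval 0.10 to 2.80, limma adjusted p = 0.998). Prim1 was lower, by −2.57 (95% interval −4.87 to −0.26, adjusted p = 0.998 by limma), and Mcm2 by −0.45 (95% interval −1.59 to 0.69). On the deposited scale Rrm1 still did not overlap, Prim1 and Mcm2 did, and Rpa3 joined as higher, where 18.8% of all probes were higher and 0.737% lower. The other members with the smallest p, Chaf1a (3.62, SE 1.49), Ccne2 (1.75, SE 1.27), Rfc3 (−1.89, SE 0.758) and Rpa2 (−2.81, SE 1.21), did not pass either, each at an adjusted p of 0.998 by limma.

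At 108 h, 0 of 30 members and 0% of all probes passed, and 0 members but 6.82% of all probes had an unadjusted p under 0.05. The median difference was 0.43, with 21 of 30 estimates positive, against 0.00 over all probes. The standard error of a single member was 1.02 in the median, so differences of this size were within the error of one gene. Gins2, first probe, had −0.41, −0.18 and −0.67 with prominin against −1.19, −3.88 and −1.94 in control cultures. It was the single one of 19 members without overlap between the groups (background 6.49% lower, 6.30% higher), with a difference of 1.92 (95% interval −0.24 to 4.08, limma adjusted p = 0.732). Mcm7 had −1.84 (95% interval −3.89 to 0.22, adjusted p = 0.732 by limma). Mcm6, at −1.49, turned to 0.026 without control replicate 2. The next by p, Cdt1 (1.95), Dnmt1 (1.15) and Pold2 (−1.46), did not pass, with adjusted p from 0.745 to 0.822 by limma. Without centring the sign of the median turned, to −0.67 against −1.07 over all probes. Mcm2, Mcm7, Pold2 and Rrm2 then lay lower without overlap and Gins2 no longer stood apart, where 29.1% of all probes were lower in that way.

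**Figure D4:**
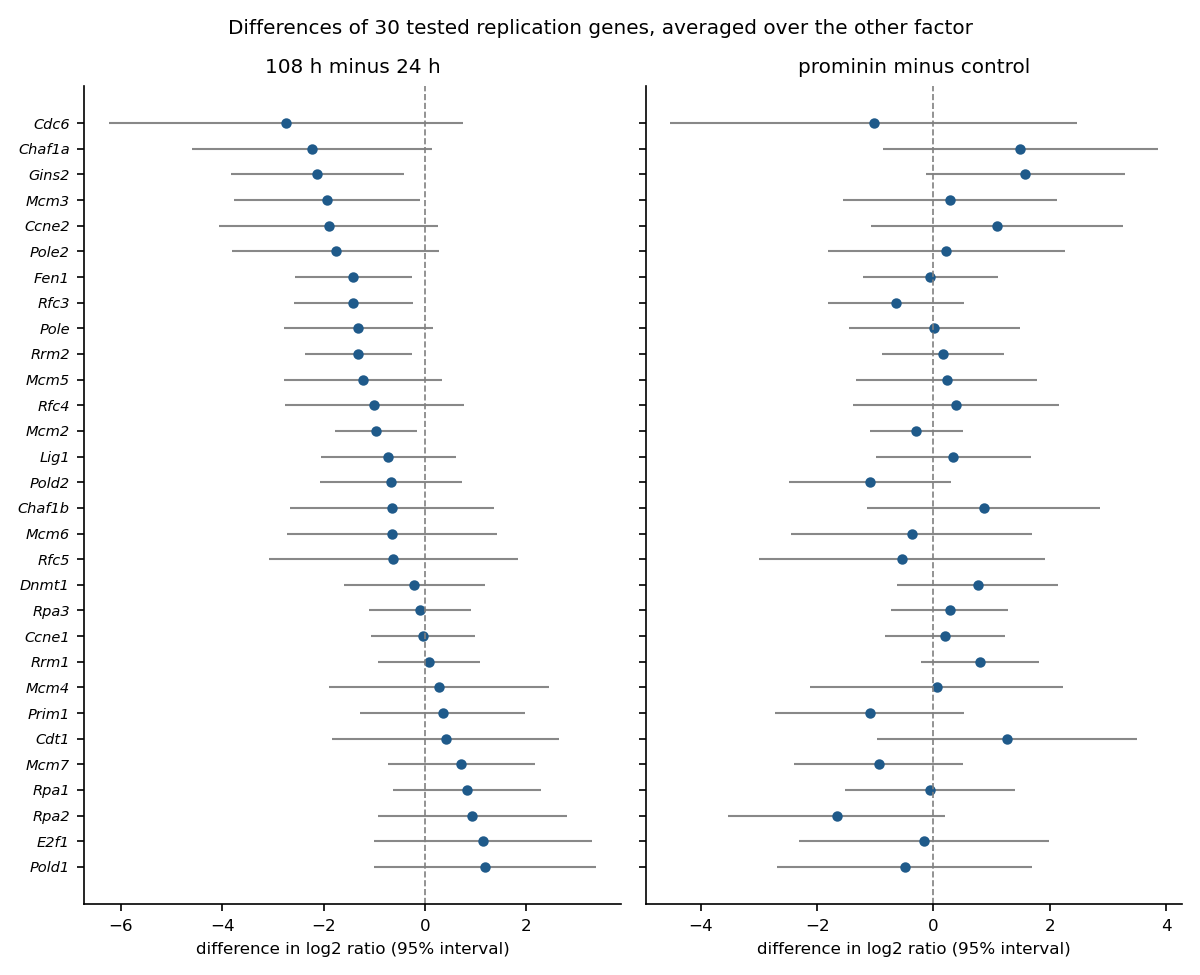
Differences in log2 ratio of the 30 tested members (points, with 95% intervals): 108 h minus 24 h averaged over both kinds of culture (left) and prominin minus control averaged over both times (right). None passed the adjusted threshold. For Gins2, Mcm3, Fen1, Rfc3, Rrm2 and Mcm2 the unadjusted interval of the time difference lies below 0.

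The change in the prominin difference between 24 h and 108 h was tested as an interaction, and 0 of 30 members and 0% of all probes passed, with 1 member (3.33%) and 5.95% of all probes at an unadjusted p under 0.05. Rfc3 had 2.49 (95% interval 0.14 to 4.84, limma adjusted p = 0.817). Prim1 (2.93), Pold1 (3.07), Chaf1a (−4.25), Rrm1 (−1.30) and Mcm7 (−1.80) had adjusted p from 0.817 to 0.849 by limma. The members' median was 0.71, but −1.11 without centring, against −1.69 over all probes, so its sign rests on the scale. Averaged over both times, prominin against control called 0 members and 0% of all probes, and 0 members but 5.06% of all probes had an unadjusted p under 0.05. Gins2 (1.58), Rrm1 (0.80), Chaf1a (1.49), Rpa2 (−1.66), Pold2 (−1.10) and Prim1 (−1.10) came nearest, each with an adjusted p of 0.959 by limma.

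Between 24 h and 108 h most members had lower estimates, and none passed. Averaged over both kinds of culture, 21 of 30 differences were negative (70.0%, against 51.7% of all probes), with a median of −0.66 against −0.04. Of all probes 0.0109% were called lower and 0.0437% higher. At an unadjusted p under 0.05 there were 6 members, all lower (20.0%), against 9.70% of all probes. Rrm2 had −1.34, −2.45 and −1.30 in control and −1.74, −1.62 and −0.23 in prominin cultures at 24 h. At 108 h it had −2.09, −3.27 and −2.65 in control and −1.94, −3.46 and −3.15 in prominin cultures. Its prominin groups did not overlap and its control groups did. The difference was −1.32 (95% interval −2.37 to −0.27, limma adjusted p = 0.395).

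The others among the 6 were Gins2 at −2.13 (95% interval −3.83 to −0.42), Fen1 at −1.41 (−2.57 to −0.25), Mcm2 at −0.97 (−1.77 to −0.16), Rfc3 at −1.41 and Mcm3 at −1.94, with adjusted p from 0.407 to 0.482 by limma. In the other direction, Rpa1 (0.82), Pold1 (1.19) and E2f1 (1.15) came nearest, with adjusted p from 0.741 to 0.758 by limma. Rpa3 differed by −0.09 (95% interval −1.10 to 0.91) and Dnmt1 by −0.21 (−1.60 to 1.18).

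The time difference was read within each kind of culture as well. In control cultures 25 of 30 estimates were negative, with a median of −0.98 against −0.06 over all probes. None passed, of 30 members or of all probes (0%), and 5 members, all lower (16.7%), and 6.94% of all probes had an unadjusted p under 0.05. Rfc3 was at −0.76, 1.51 and 0.78 at 24 h and at −3.16, −1.25 and −2.04 at 108 h, with no overlap and a difference of −2.66 (95% interval −4.32 to −0.99, limma adjusted p = 0.507). Pole (−2.32, adjusted p = 0.642) and Mcm3 (−3.02, adjusted p = 0.69, both by limma) followed, while Mcm7 (1.61), Rrm1 (0.73) and E2f1 (1.14) were the highest by p, at adjusted p from 0.763 to 0.898 by limma. Of 18 members with 6 values, Rfc3, Fen1, Mcm2, Pole and Orc6 were lower at 108 h without overlap (background 7.57% lower, 6.22% higher). On the deposited scale none of these 5 stood apart and Mcm7 alone was higher, where 20.4% of all probes were higher and 2.31% lower.

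In prominin cultures 18 of 30 estimates were negative, with a median of −0.39 against 0.01 over all probes. None of 30 members passed, against 0.0218% of all probes called higher and 0% lower, and 2 members, both lower (6.67%), and 8.81% of all probes had an unadjusted p under 0.05. Without prominin replicate 3 at 108 h the members' median was 0.071. The median in control cultures was then −0.60. In that fit 25 members could be tested, and the centring used the probes measured on the remaining arrays. Chaf1a had −4.36 (SE 1.49, limma adjusted p = 0.441), Rrm2 −1.65 (SE 0.677, adjusted p = 0.507) and Ccne2 −2.55 (SE 1.40, adjusted p = 0.654). Rpa2 (2.08), Pold1 (2.72) and Prim1 (1.81) were the nearest of those higher, with adjusted p from 0.644 to 0.67 by limma. Rfc4, Mcm2 and Rrm2 were lower at 108 h without overlap, of 19 members with 6 values (background 8.03% lower, 8.45% higher). On the deposited scale these 3 and Fen1, Mcm6 and Rrm1 were, where 30.2% of all probes were lower and 1.28% higher.

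Other values also moved with time beside the members. Ratios of small whole numbers made up 31.6 to 56.0% of all measured values at 24 h but 3.30 to 9.61% at 108 h. The time difference and the share of such ratios therefore cannot be told apart. When those ratios were left out, 20 members could be tested and their median time difference was −0.27. On the 11 members measured on every array, the mean of the array medians was −1.31 ± 0.55 in control and −1.81 ± 0.41 in prominin cultures at 24 h, and −2.10 ± 0.16 and −2.02 ± 0.61 at 108 h (SD, n = 3 each). The ranges of the 24 h and 108 h arrays overlapped. Mitosis genes had a median time difference of −0.72, with 7 of 21 tested probes at an unadjusted p under 0.05, all lower, and among them Cdk1 at −3.16, Aurka at −2.32 and Prc1 at −2.08, none of which passed. The erythroid list had a median difference of 2.16 over 4 tested probes, 1 of them called higher, and the list of embryonic tissue outside the nervous system 1.57 over 7. Their part in the members' time difference was not tested.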

How the data were processed

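The deposited series table was read as log2 ratios of neurosphere (Cy5) to embryo reference (Cy3) RNA, with 1 column per array. Per the labels' protocols, 1 ug of total RNA per channel was labelled with dendrimers after Trizol and RNeasy extraction. The normalization is not given in the sources used here. Over the 4532 probes measured on all 12 arrays, the array medians of the deposited values ran from −2.59 to −0.84. Whether the authors had set a common scale was not tested. Exact zeros and the top code 16.61 were set to missing. Each array was centred on its median over the 4532 probes measured on all 12. Measured probes numbered 10404 to 14465 on the 24 h and 15944 to 16598 on the 108 h arrays, and the number of arrays limits the precision. Probes were named from the platform annotation: 16620 had 1 symbol, 113 several and 5005 none, and the last 2 kinds were not used for members.

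The 9155 probes that each group had measured 2 or more times were fitted with limma 3.58.1 in R 4.3.3, with 1 mean per group and 8 contrasts: the level over the 4 groups, prominin at each time and averaged, time in each kind of culture and averaged, and the interaction. P-values were adjusted by Benjamini-Hochberg over all 9155 probes, at a threshold of 0.05. The script was tested on simulated data. A ratio counted as one of small whole numbers if it lay within 0.0006 of the log2 ratio of 2 different whole numbers up to 10. Named were all members past the threshold or, where fewer than 3 passed in a direction, the next by unadjusted p up to 3, and for the level those measured on all 12 arrays. Other lists were named up to 3 genes by p. Members without overlap between groups, probes that disagree and members shown for a promoter were also named. The members and lists were chosen with earlier results of these data known. Alternatives were the scaling, the treatment of zeros and of small whole-number ratios, the filter, array weights, a replicate block and leaving out each array.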

Additional observations from a re-analysis of the deposited data

How the results depend on the processing

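The 20 members called lower in level kept that call under each alternative in which they could be tested, and 0 members were called in the other 7 comparisons under all 22 alternatives. With values required on all 12 arrays, 11 members could be tested and 8 were called lower in level. The background there was 30.6% of 4532 probes called lower and 31.2% higher. Leaving out 1 array gave 15 to 19 members called. It also changed how many could be tested, for example 25 without control replicate 2 at 24 h. The members' median level was −3.14 without centring, −3.17 after quantile normalization, −0.82 with zeros kept and −2.16 without ratios of small whole numbers. Over all tested probes the medians were, in the same order, −1.36, −1.35, 1.21 and −0.26. With zeros kept 46 member probes could be tested, and without those ratios 20. The members' median level ran from −1.89 to −1.41 over the sets that leave out 1 array.

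Without centring the medians of the differences were 0.40 for prominin at 24 h, −0.67 at 108 h, −1.11 for the interaction, −0.30 for time in control and −1.40 in prominin cultures, where all probes shifted by 0.58, −1.07, −1.69, 0.61 and −1.06. Quantile normalization gave 0.22 for the interaction and −0.61 for time in control cultures. Leaving out small whole-number ratios gave −0.45 there and −0.27 for time averaged over both kinds of culture, which was −0.21 with values on all 12 arrays. Leaving out 1 array gave −0.67 to 0.021 for prominin at 24 h, −1.26 to −0.60 for time in control and −0.58 to 0.071 in prominin cultures. Rpa2 turned in level to −1.09 without centring (limma adjusted p = 0.0435) and −1.20 after quantile normalization (0.0149). For time in control cultures E2f1 turned to −0.40 with zeros kept and −0.21 without control replicate 3 at 108 h (−0.21 to 2.27 over the sets), and for prominin at 108 h Mcm6 turned to 0.026 without control replicate 2 (−2.26 to 0.026). The causes were not tested.

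Deviations of 18 same-numbered pairs of arrays correlated at −0.07 to 0.12, with a median of 0.05 and 3 of them over 0.1. For 36 pairs with different numbers the range was −0.12 to 0.12, with a median of −0.02 and 1 over 0.1. Correlations were thus small, and whether the replicate numbers mark pairs is not settled by them. With the replicate number as a block, 21 members were called in level and 0 in every other comparison, and the averaged time median was −0.80. With 3 arrays a group and a median standard error of about 0.75 for the averaged time difference, differences of that size in a single gene were within the error.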
